A study of Mus musculus with 10 samples.

Results

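The genes of the aryl hydrocarbon receptor and of DMBA metabolism were examined in RNA-seq data of mouse intestinal organoids. The 9 members were chosen by their symbols from the 47069 genes of the count table: the receptor *Ahr*, its feedback inhibitors *Ahrr* and *Tiparp*, the monooxygenases *Cyp1a1*, *Cyp1a2* and *Cyp1b1*, the epoxide hydrolase *Ephx1*, the quinone reductase *Nqo1* and the aldehyde dehydrogenase *Aldh3a1*. There were 10 libraries, 2 in each of 5 groups, all from cultures kept for 50 days in Matrigel with Noggin, EGF and R-spondin-1 and labelled C57BL/6. According to the results and captions of the study, the organoids of all groups, control included, carried *Lgr5-EGFP-CreERT2* and *Ppp2r1a* flox/flox alleles. Cre of this line is made only in *Lgr5*+ stem cells, so tamoxifen (TAM) can delete the floxed part of *Ppp2r1a*, the PP2A scaffold subunit, only in those cells and what descends from them. Control is labelled as given saline, and the DMBA group as given DMBA, in a set labelled long. TAM short and TAM long are labelled as given tamoxifen, in sets labelled short and long and called dosage-sensitive. DMBA+TAM is labelled as given both agents. What short, long and dosage-sensitive mean is not given in the sources used here, and no dose is given for these libraries. The labels do not say whether libraries of a group came from separate cultures or animals, so p-values measure only the spread between these libraries, which may be technical.

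DMBA is a polycyclic aromatic hydrocarbon that must be oxidized before it damages DNA. Such compounds bind AHR, which moves to the nucleus, pairs with ARNT and switches on genes that carry the short core of its response element, among them *Cyp1a1*, *Cyp1a2*, *Cyp1b1*, *Ahrr* and *Tiparp*. CYP1B1 and CYP1A1 oxidize DMBA to an epoxide, the microsomal epoxide hydrolase EPHX1 opens the epoxide to a diol, and a further oxidation gives the diol epoxide that binds DNA. NQO1 reduces quinones that arise on the way. In the gut the receptor is known from both epithelial and stromal cells, and CYP1A1 in the epithelium clears dietary ligands of the receptor.

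The promoters of 6 members are shown: *Cyp1a1*, *Cyp1b1*, *Tiparp* and *Nqo1*, which fell in DMBA against control, *Ephx1*, which rose, and *Ahrr*, which was not called (-0.23, adjusted p = 0.681 with edgeR). The RefSeq promoter table on GRCm38.p6 held 7 of the 9 members, and *Ahr* and *Aldh3a1* had no entry. Capitals mark the receptor core, spelled GCGTG and searched on both strands, so that it reads CACGC where it lies on the other strand. Each line gives the 250 bases before the start of the gene, 5′ to 3′ on the strand of the gene: chr9:57697363-57697612 on the plus strand for *Cyp1a1*, chr17:79715062-79715311 on the minus strand for *Cyp1b1*, chr3:65528197-65528446 on the plus strand for *Tiparp*, chr8:107403206-107403455 on the minus strand for *Nqo1*, chr1:181017570-181017819 on the minus strand for *Ephx1* and chr13:74292332-74292581 on the minus strand for *Ahrr*.
Cyp1a1: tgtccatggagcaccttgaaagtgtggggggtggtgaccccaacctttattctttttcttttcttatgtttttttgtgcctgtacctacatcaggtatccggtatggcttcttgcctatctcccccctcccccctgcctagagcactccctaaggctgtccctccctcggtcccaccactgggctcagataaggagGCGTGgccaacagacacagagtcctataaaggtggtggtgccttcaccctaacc
Cyp1b1: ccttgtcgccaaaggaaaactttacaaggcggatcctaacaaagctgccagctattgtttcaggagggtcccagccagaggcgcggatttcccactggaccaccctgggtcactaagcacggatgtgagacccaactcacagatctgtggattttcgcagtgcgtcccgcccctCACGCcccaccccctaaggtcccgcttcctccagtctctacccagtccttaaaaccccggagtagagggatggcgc
Tiparp: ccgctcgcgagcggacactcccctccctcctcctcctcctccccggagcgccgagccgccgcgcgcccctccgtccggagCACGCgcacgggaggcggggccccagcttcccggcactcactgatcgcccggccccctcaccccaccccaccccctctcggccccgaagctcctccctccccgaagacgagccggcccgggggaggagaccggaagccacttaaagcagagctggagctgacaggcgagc
Nqo1: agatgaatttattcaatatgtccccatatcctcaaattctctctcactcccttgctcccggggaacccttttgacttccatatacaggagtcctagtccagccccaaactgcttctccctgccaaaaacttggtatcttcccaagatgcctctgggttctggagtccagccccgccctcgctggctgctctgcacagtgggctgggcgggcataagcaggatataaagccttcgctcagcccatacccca
Ephx1: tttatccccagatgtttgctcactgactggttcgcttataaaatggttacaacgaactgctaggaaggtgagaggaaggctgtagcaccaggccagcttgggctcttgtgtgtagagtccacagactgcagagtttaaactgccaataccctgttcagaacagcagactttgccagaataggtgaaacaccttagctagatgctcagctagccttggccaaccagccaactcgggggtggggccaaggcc
Ahrr: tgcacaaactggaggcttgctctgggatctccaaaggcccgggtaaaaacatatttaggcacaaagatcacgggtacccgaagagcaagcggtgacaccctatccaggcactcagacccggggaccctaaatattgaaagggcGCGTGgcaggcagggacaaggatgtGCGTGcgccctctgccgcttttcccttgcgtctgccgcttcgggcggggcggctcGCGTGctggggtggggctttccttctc

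The search covered 300 bases, from 250 before to 50 after each start. The core occurred 1 time each in *Cyp1a1*, *Cyp1b1* and *Tiparp*, with its first base at positions -54, -76 and -170 from the start, and 3 times in *Ahrr*, at -107, -82 and -27. It did not occur in the windows of *Ephx1*, *Nqo1* and *Cyp1a2*. Of 32851 promoters of this length, 32.4% held the core, so its presence in a window is common. Among the members it did not divide those that fell from the others, since *Nqo1* fell without it and *Ahrr*, with 3, was not called. A second motif, TGACNNNGC, the core of the antioxidant response element bound by NRF2, occurred in none of the 7 windows and in 12.4% of all promoters. The start of *Ephx1* in RefSeq lies within the gene as the count table lists it. A match or its absence describes only these letters in this window.

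Several features of the libraries bear on all results. The totals were 8828247 to 10923673 counts in 8 libraries, but 1592366 and 1915270 in DMBA+TAM, so low genes were measured least precisely there. The libraries are titled NS for control, NL for DMBA, DSS_S for TAM short, DSS_L for TAM long and Lgr5 for DMBA+TAM. Below, S libraries are those of NS and DSS_S and L libraries those of NL and DSS_L, by the last letter of the title. DSS is a common abbreviation of dextran sulfate sodium, an agent that causes colitis in mice. The treatment labels of these libraries name tamoxifen and not that agent, and no title names DMBA or tamoxifen. What the groups received is therefore given here as labelled and could not be settled. The markers of the gut segments differed with these letters. The sum of 10 small intestine markers was 16818 to 24208 normalized CPM (counts scaled by the library total and a TMM factor) in the S libraries and 17.6 to 292 in the L libraries. *Apoa4* had no count in any L library and *Lct* none in TAM long. The sum of 6 colon markers was 228 to 424 in S, where *Car1* had no count in control and *Aqp8* and *Hoxb13* none in TAM short, and 2597 to 12196 in L. In DMBA against control 8 of 10 small intestine markers fell and 6 of 6 colon markers rose, where 23.3% of all tested genes fell and 24.5% rose. In TAM long against TAM short 7 fell and 4 rose, where 20.3% and 22% of all tested genes did. Among these markers *Car1*, *Aqp8* and *Hoxb13*, at 0.602 normalized CPM or less in S, passed the filter on low counts only through other groups. The same held for *Apoa1*, *Lct* and *Apoa4*, at 0.690 or less in L, and for *Fabp1*, at 2.76 or less there. Calls of these markers were built in, so the counts are a description. Within S the groups differed as well. *Lct* stood at 1280 to 1555 normalized CPM in control and 0.883 to 3.05 in TAM short, and *Fabp1* at 1592 to 2754 and 2.15 to 5.20. In TAM short against control 5 small intestine markers fell and 2 rose, where 7.8% and 6.52% of all tested genes did. The part of this difference in results that set control apart was not tested. By titles and sums, DMBA against control is also L against S, and the effect of DMBA and the difference between the sets cannot be told apart in that comparison. In the libraries labelled DMBA+TAM, the sum of 10 epithelial markers was 22.9 to 34.3 normalized CPM against 14053 to 24766 in the other 8 libraries, with none of the 10 at 0 counts. There *Krt8*, a keratin of simple epithelia, stood at 7.49 and 11.6 normalized CPM, against 5200 to 7250 elsewhere. The sum of 10 fibroblast markers was 32747 to 33571 in DMBA+TAM and 689 to 2420 in the others, and *Col1a1*, a collagen chain of fibroblasts, stood at 7554 to 8323 against 62.5 to 291. Against control, 10 of 10 epithelial markers fell and 9 of 10 fibroblast markers rose there, where 35.3% of all tested genes fell and 29% rose. *Krt18*, *Krt20*, *Cldn3*, *Vil1* and *Cdh17*, at 0.441 normalized CPM in 1 DMBA+TAM library each, passed the filter on low counts only through other groups. Their falls there were built in. The marker values go against the label of intestinal organoid. In such bulk samples, fewer cells of a type and less RNA per cell cannot be told apart. *Ppp2r1a* stood at 123 and 129 normalized CPM in control, 153 to 167 in DMBA, 131 to 147 in TAM short, 157 to 169 in TAM long and 129 to 133 in DMBA+TAM. It rose against control in DMBA (0.34 ± 0.11, adjusted p = 0.0291 with edgeR), a group not labelled with tamoxifen, and in TAM long (0.37 ± 0.11, adjusted p = 0.0213 with edgeR). Counts are sums over all exons, so they do not check the deletion.

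Of the 9 members, 7 passed the filter on low counts and were tested among 16179 genes with edgeR, with Benjamini-Hochberg adjustment and a threshold of 0.05. *Cyp1a2* had no count in any library, which allows up to 0.259 to 0.379 normalized CPM in each of 8 libraries and 1.58 and 1.32 in those of DMBA+TAM (3 counts of the library, counting error only). *Aldh3a1*, which oxidizes aldehydes and is induced through the receptor in liver, had 3 counts in TAM short 2, 2 counts in TAM long 2 and none in the other 8 libraries. *Cyp1a1* passed the filter only through the control libraries. Members are therefore described by name, and counts of members are not read as support.

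**Figure D1:**
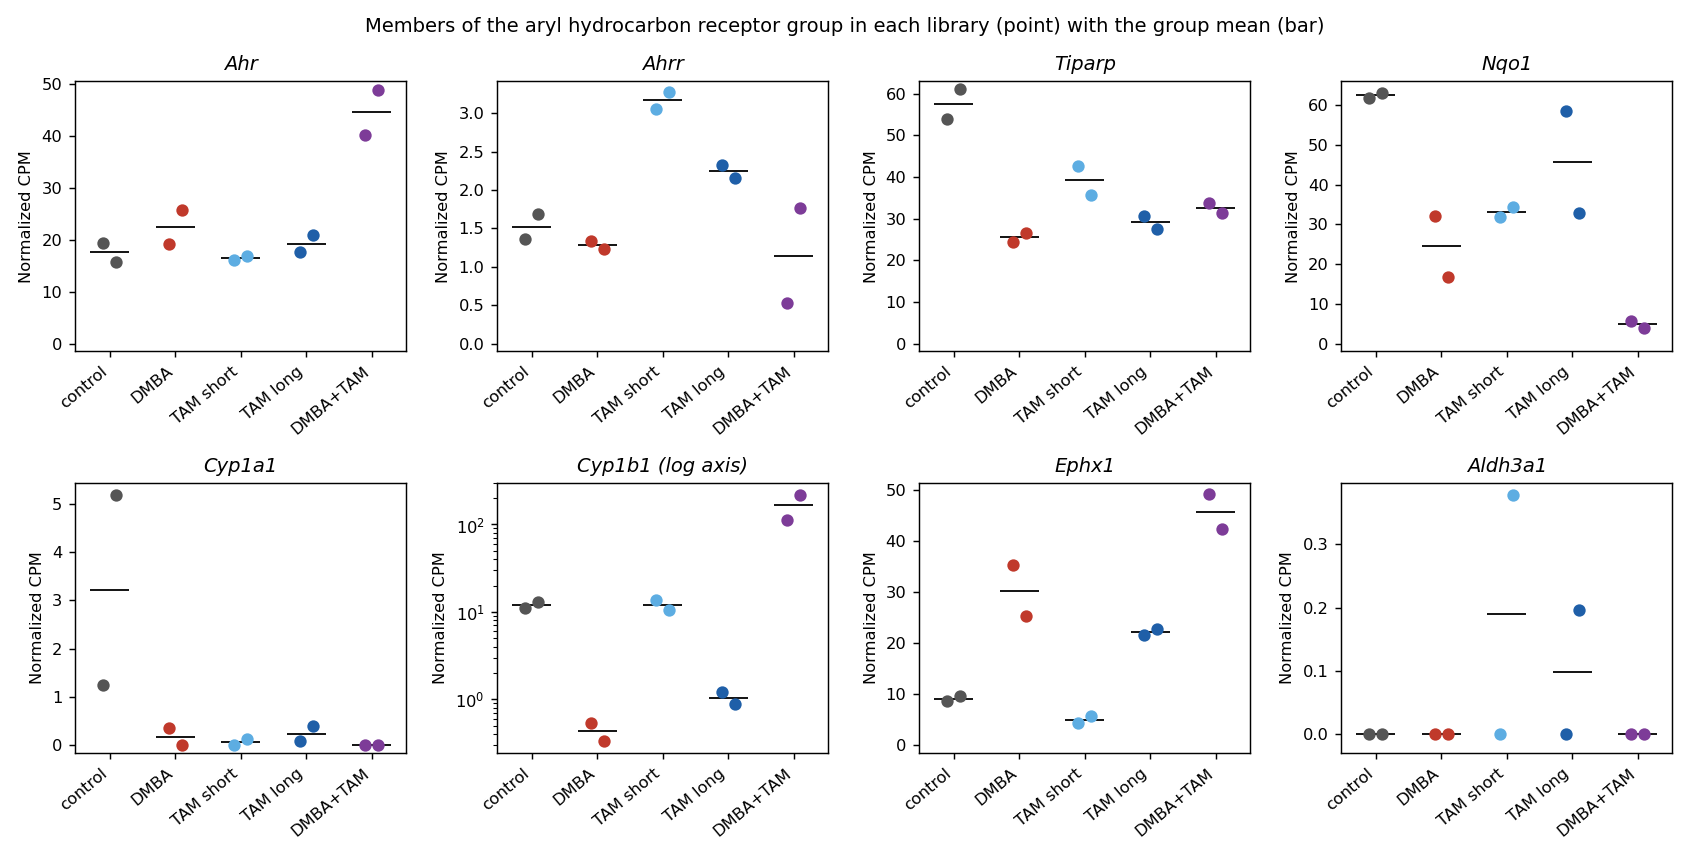
Normalized CPM of 8 members in each library (points, 2 per group) with the group mean (bar), by group; *Cyp1b1* is on a log axis, the others are linear from 0, and *Cyp1a2*, with no count, is left out. *Cyp1b1* ran from 0.337 to 217, with DMBA and TAM long lowest and DMBA+TAM highest, and *Ephx1* was high in the same L libraries in which *Cyp1b1* was low.

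The receptor itself was expressed in every library and differed little among the groups other than DMBA+TAM. *Ahr* stood at 19.4 and 15.8 normalized CPM in control, 19.2 and 25.7 in DMBA, 16.0 and 16.8 in TAM short, 17.6 and 20.8 in TAM long, and 40.1 and 48.9 in DMBA+TAM. Both DMBA+TAM libraries lay above all others, and each group overlapped its neighbour among DMBA, TAM long, control and TAM short. In DMBA against control the log2 fold change was 0.35 ± 0.19 (SE, n = 2 per group, adjusted p = 0.163 with edgeR), with a 95% interval from -0.03 to 0.72. This call depended on the scaling: with library size only, which moved the median of all genes from 0.07 to 0.38 on the log2 scale, *Ahr* was at 0.64 (adjusted p = 0.0149 with edgeR). In DMBA+TAM *Ahr* rose 1.34 ± 0.20 against control (adjusted p = 0.000236), 1.44 ± 0.20 against TAM short, 1.22 ± 0.20 against TAM long and 0.99 ± 0.20 against DMBA, as log2 fold changes, with adjusted p from 0.000155 to 0.00198 in edgeR. This stood beside the near absence of the epithelial markers in these libraries, and its part in the result was not tested.

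*Ahrr*, which competes with AHR for ARNT and represses its targets, was low throughout. Its counts were 12 and 14 in control, 15 and 11 in DMBA, 27 and 26 in TAM short, 27 and 22 in TAM long, and 1 and 4 in DMBA+TAM. The normalized values of TAM short, 3.05 and 3.28, lay above those of every other group, and DMBA overlapped DMBA+TAM. In TAM short against control the log2 fold change was 1.05 ± 0.40 (n = 2 per group, adjusted p = 0.112 with edgeR), which did not pass the test, although the fit on these groups alone gave 1.10 (adjusted p = 0.0446 with edgeR). *Ahrr* fell in DMBA+TAM against TAM short by 1.40 ± 0.59 on the log2 scale (adjusted p = 0.0476), close to the threshold. That call was lost with DESeq2 (adjusted p = 0.165), with library size only, with no filter, in the fit on these groups alone and with the replicate block (adjusted p = 0.0911, 0.0838 and 0.0648 for the last 3). It was also lost without either TAM short library or without DMBA+TAM 1, where the value was -0.86 to -1.48, and without DMBA+TAM 2 it was -2.57.

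*Tiparp*, an ADP-ribosyltransferase that is induced by the receptor and inhibits it, was highest in control. It stood at 53.8 and 61.2 normalized CPM in control, 42.7 and 35.7 in TAM short, 33.8 and 31.3 in DMBA+TAM, 30.5 and 27.6 in TAM long, and 24.5 and 26.6 in DMBA. No 2 groups overlapped in this order. *Tiparp* fell by 1.17 ± 0.14 in DMBA against control (adjusted p = 0.000115), by 0.98 ± 0.14 in TAM long against control (adjusted p = 0.000332) and by 0.82 ± 0.15 in DMBA+TAM against control (adjusted p = 0.00085), as log2 fold changes from edgeR over 2 libraries per group. The last was not called with library size only (-0.33, adjusted p = 0.0868 with edgeR), where the median of all genes moved from -0.17 to 0.31, or with counts thinned to the smallest total (-0.48, adjusted p = 0.10). In TAM short against control *Tiparp* fell by 0.55 ± 0.14 (adjusted p = 0.0251), and leaving out any of the 4 libraries lost that call, with values from -0.69 to -0.43.

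*Cyp1a1*, the P450 enzyme whose induction is the classic sign of an active receptor, was barely detected. Control held 11 and 43 counts of it, DMBA 4 and 0, TAM short 0 and 1, TAM long 1 and 4, and both DMBA+TAM libraries 0. Both control libraries lay above all others in normalized CPM, at 1.24 and 5.18, but differed from each other by more than the other groups differed among themselves. *Cyp1a1* was thus low in every group other than control, whether DMBA was labelled or not. Control also stood apart from TAM short in small intestine markers, and the part of that in the result was not tested.

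Against the 54 counts of control, the ratio of control to DMBA was 15.8, with an exact 95% interval for counting error from 5.84 to 60.2. The ratio of control to TAM long was 13.7 (5.53 to 43.9), and that to TAM short, which had 1 count, was 52.8 (9.09 to 2125). For DMBA+TAM, a floor of 3 counts per library (1.45 normalized CPM on average) puts *Cyp1a1* at least 2.21-fold lower than the mean of control. That bound rests on control 2, since control 1, at 1.24, lies under the floor. The edgeR fit, which also weighs the spread between libraries, gave log2 fold changes of -3.93 ± 1.29 for DMBA (adjusted p = 0.0158), -5.41 ± 2.23 for TAM short (adjusted p = 0.0301) and -3.70 ± 1.19 for TAM long (adjusted p = 0.018). DMBA+TAM was also called (adjusted p = 0.0335 with edgeR). Because *Cyp1a1* entered the test only through its control counts, a fall against control was built in, and these values are a description. These calls rested on single libraries: without control 2, the values were -2.60, -4.06 and -2.35, with adjusted p of 0.173, 0.212 and 0.207 in edgeR. The DMBA call was also lost without DMBA 2 (-3.11, adjusted p = 0.0577), the TAM short call without either TAM short library (-4.50 and -7.69) and the TAM long call without either TAM long library (-2.98 and -4.98). The 3 comparisons share the control libraries and are not independent of each other.

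*Cyp1b1*, the P450 that activates DMBA outside the liver, ran from nearly absent to well expressed. It stood at 11.1 and 13.1 normalized CPM in control, 13.6 and 10.6 in TAM short, 1.21 and 0.884 in TAM long, 0.536 and 0.337 in DMBA, and 113 and 217 in DMBA+TAM. Control and TAM short overlapped, and all other neighbours in this order were apart. In counts, the L libraries held 3 to 14 reads of *Cyp1b1*, the S libraries 84 to 120, and the shallow DMBA+TAM libraries 214 and 493.

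Both L groups were low in *Cyp1b1*, with and without DMBA. *Cyp1b1* fell by 4.71 ± 0.60 on the log2 scale in DMBA against control, 26.2-fold (n = 2 per group, adjusted p = 3.57e-05 with edgeR). It fell by 3.5 ± 0.43 in TAM long against TAM short, 11.3-fold, a comparison that shares no library with the former and holds no labelled DMBA (adjusted p = 0.000118 with edgeR). The difference between these 2 changes was -1.21 ± 0.74 on the log2 scale (adjusted p = 0.36), with a 95% interval from -2.67 to 0.25. Within the L libraries, TAM long was at 1.21 ± 0.68 relative to DMBA (adjusted p = 0.337), with an interval from -0.13 to 2.55, but at -0.013 with thinned counts, and within the S libraries TAM short overlapped control, with an interval from -0.58 to 0.58. The low level in DMBA therefore moved with the letter L also where no DMBA was labelled. Beside it, the sum of the colon markers was 2597 to 6772 in DMBA and 4710 to 12196 in TAM long, and *Car1*, a carbonic anhydrase of colonocytes, had no count in control and 1145 to 11129 normalized CPM in the L libraries. The sum of 5 smooth muscle markers was 889 to 1778 in S and 5051 to 9186 in L, and all 5 rose in both comparisons. Of all tested genes 24.5% rose in DMBA against control and 22% in TAM long against TAM short. The part of these markers in the result of *Cyp1b1* was not tested.

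**Figure D2:**
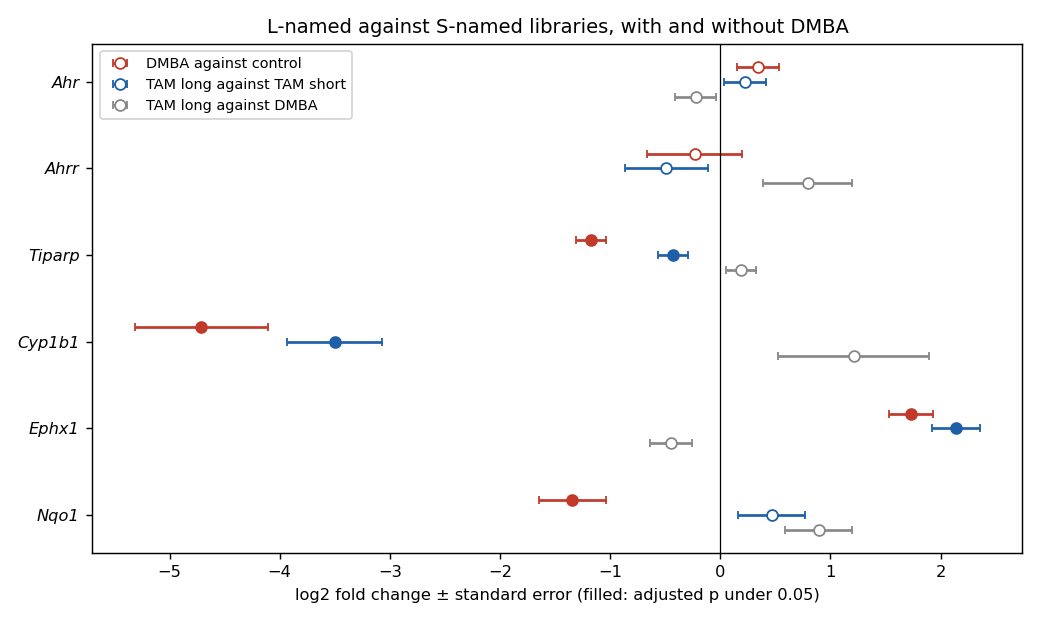
Log2 fold changes ± standard error (x axis) of 6 members for DMBA against control, TAM long against TAM short and TAM long against DMBA; filled points have an adjusted p under 0.05. *Cyp1b1* and *Ephx1* moved the same way in the first 2 comparisons, at -4.71 and -3.5 and at 1.73 and 2.14, and *Nqo1* was at -1.34 and 0.47.

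In DMBA+TAM *Cyp1b1* was higher than in every other group. It rose 3.77 ± 0.28 against control, or 13.7-fold (adjusted p = 2.36e-06), and 3.77 ± 0.28 against TAM short (adjusted p = 2.53e-06). Against the L groups it rose 8.48 ± 0.60 over DMBA, or 358-fold (adjusted p = 1.96e-07), and 7.27 ± 0.42 over TAM long (adjusted p = 2.34e-07), as log2 fold changes from edgeR over 2 libraries per group. The DMBA+TAM libraries differed from each other (113 against 217), and the value against control stayed between 3.20 and 4.14 when any library of the comparison was left out. The rise stood beside the fibroblast sum of 32747 to 33571 normalized CPM in DMBA+TAM, and fat cell markers (4 of 5 rose against control) at 1322 to 3054 against 44.1 to 195 elsewhere. Of these *Lep*, at 0.252 normalized CPM or less elsewhere, passed the filter only through DMBA+TAM, so a call of its rise was built in. Immune markers (6 of 8 rose and 1 fell) were at 1284 to 1321 against 59.6 to 165, with *Cd3e* at 0 counts in DMBA+TAM. Of these *Tpsb2*, at 1.38 normalized CPM or less elsewhere, likewise passed the filter only through DMBA+TAM, so its rise was built in. Endothelial markers (6 of 6 rose) were at 599 to 603 against 61.3 to 115. Smooth muscle markers were lower there, at 173 to 638 (3 of 5 fell against control). The upper value rests on 1 library, where *Des* stood at 494 normalized CPM against 30.1 in the other. Of all tested genes 29% rose and 35.3% fell in DMBA+TAM against control. In DMBA against control and in TAM long against TAM short, where *Cyp1b1* fell, 8 of 10 and 9 of 10 fibroblast markers rose. Of all tested genes 24.5% and 22% rose there. The part of these markers in the result was not tested.

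*Ephx1*, the microsomal epoxide hydrolase, was high where *Cyp1b1* was low among the 8 libraries other than DMBA+TAM. It stood at 8.59 and 9.64 normalized CPM in control, 4.29 and 5.80 in TAM short, 21.6 and 22.8 in TAM long, 35.2 and 25.3 in DMBA, and 49.1 and 42.3 in DMBA+TAM. No 2 neighbouring groups overlapped. *Ephx1* rose 1.73 ± 0.20 in DMBA against control, 3.32-fold (n = 2 per group, adjusted p = 0.000118 with edgeR), and 2.14 ± 0.22 in TAM long against TAM short, 4.41-fold (adjusted p = 7.36e-05 with edgeR). The difference between these changes was -0.41 ± 0.30 (adjusted p = 0.475), with an interval from -1 to 0.18. As with *Cyp1b1*, the change was thus present between L and S in the absence of labelled DMBA. The higher level in L moved with the colon and smooth muscle sums given above, and with the fibroblast sum, which was 689 to 1500 normalized CPM in S and 1524 to 2420 in L. In DMBA+TAM, where *Ephx1* was highest, the fibroblast sum was highest too (32747 to 33571). The colon and smooth muscle sums were at 33.0 to 45.9 and 173 to 638 there, the last value mostly *Des* of 1 library. Their part in the result was not tested.

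Within the S libraries *Ephx1* fell by 0.85 ± 0.23 in TAM short against control (adjusted p = 0.036 with edgeR), and the call was lost with library size only (-0.77), with thinned counts (-1.01) and without any of the 4 libraries (-1.08 to -0.65). Within S the segment markers were not alike either: *Fabp6*, the bile acid binding protein of the ileum, stood at 7847 to 8965 normalized CPM in TAM short and 0.241 to 2.83 in control. In TAM long against control *Ephx1* rose 1.29 ± 0.20 (adjusted p = 0.000758). In DMBA+TAM it rose 2.32 ± 0.21 against control, 5.00-fold (adjusted p = 8.08e-06), 3.18 ± 0.23 against TAM short (adjusted p = 1.43e-06) and 1.04 ± 0.20 against TAM long (adjusted p = 0.00172). Its rise of 0.59 ± 0.20 over DMBA (adjusted p = 0.0306 with edgeR) did not hold without DMBA 2 (0.35), DMBA+TAM 1 (0.48) or DMBA+TAM 2 (0.69), or in the fit on these groups alone.

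*Nqo1*, which reduces quinones to hydroquinones and is a target of both AHR and NRF2, was highest in control and nearly lost in DMBA+TAM. It stood at 61.8 and 63.1 normalized CPM in control, 32 and 34.3 in TAM short, 58.5 and 32.9 in TAM long, 32.1 and 16.8 in DMBA, and 5.81 and 3.97 in DMBA+TAM. Control and DMBA+TAM were apart from all other libraries, and of the 3 groups between them each overlapped another. *Nqo1* fell by 1.34 ± 0.31 in DMBA against control, 2.54-fold (n = 2 per group, adjusted p = 0.00575 with edgeR). TAM short was at -0.91 ± 0.30 (adjusted p = 0.077) and TAM long at -0.45 ± 0.30 (adjusted p = 0.249) relative to control, neither of which passed the test in edgeR. The value of TAM short was called with DESeq2 (adjusted p = 0.0434), with the replicate block (adjusted p = 0.0374), with no filter and in the fit on these groups alone.

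The difference between these 2 changes was not called for *Cyp1b1* and *Ephx1*, and whether the genes differ from each other in it was not tested. For *Nqo1* the change in DMBA against control differed from that in TAM long against TAM short. The difference was -1.81 ± 0.43 on the log2 scale (adjusted p = 0.0415 with edgeR, n = 2 per group), and 5.71% of the tested genes passed this test, 2.78% with a positive and 2.93% with a negative difference (48.7% of those calls were positive, and 61.3% with library size only). The call was lost with library size only, in the fit on these groups alone and with thinned counts (adjusted p = 0.0767, 0.053 and 0.0548), and without any library except DMBA 1 and TAM long 2, with values from -1.86 to -1.33. Within the L libraries TAM long was at 0.89 ± 0.31 relative to DMBA (adjusted p = 0.15). For *Tiparp* the difference of changes was -0.74 ± 0.19 (adjusted p = 0.0564). *Tiparp* fell by 0.43 ± 0.14 in TAM long against TAM short (adjusted p = 0.0298 with edgeR), a call that was lost with DESeq2, with library size only (-0.20), with no filter, with thinned counts, and without TAM short 1 (-0.30), TAM long 1 (-0.51) or TAM long 2 (-0.38).

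In DMBA+TAM *Nqo1* held 11 and 9 counts. It fell by 3.69 ± 0.52 against control, 12.9-fold (adjusted p = 5.23e-05), by 2.35 ± 0.52 against DMBA (adjusted p = 0.002), by 3.24 ± 0.52 against TAM long (adjusted p = 0.000191) and by 2.78 ± 0.52 against TAM short (adjusted p = 0.000494), as log2 fold changes from edgeR. The direction was that of the epithelial markers, of which all 10 fell in DMBA+TAM against control with a median of -9.49. Falls of some of these markers were built in through the filter, as given above, and 35.3% of all tested genes fell. The part of the epithelial share in the result was not tested.

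**Figure D3:**
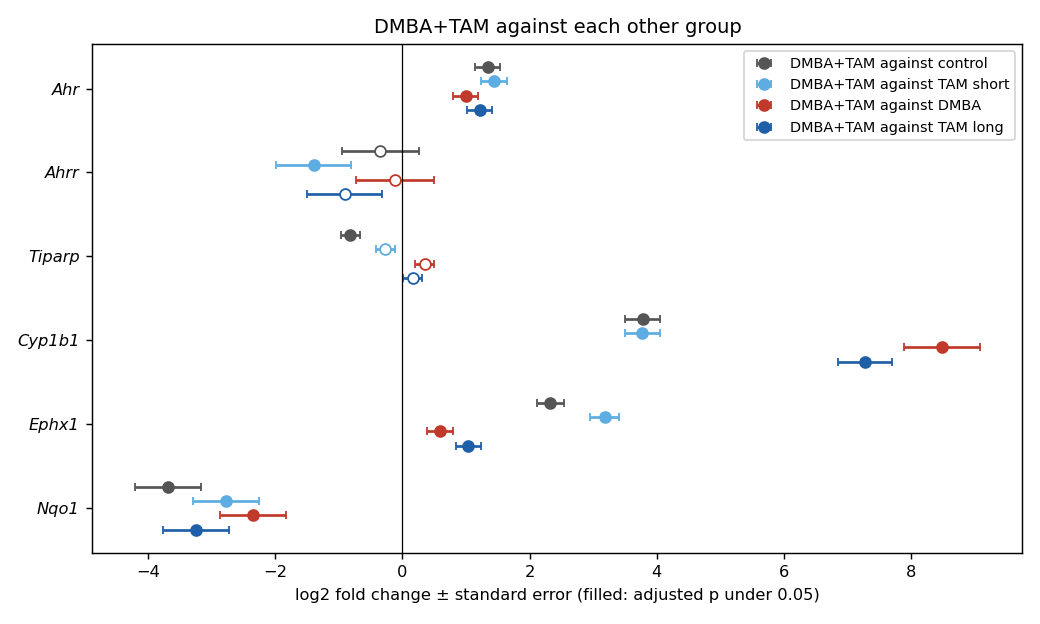
Log2 fold changes ± standard error (x axis) of 6 members in DMBA+TAM against each other group; filled points have an adjusted p under 0.05. *Ahr*, *Cyp1b1* and *Ephx1* lay above 0 and *Nqo1* below 0 against all 4 groups.

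Read against the whole table, calls were common. In DMBA against control 1 member rose and 4 fell, where 24.5% of all tested genes rose and 23.3% fell (47.8% called). Of the 5 called here, 4 remain without *Cyp1a1*, which was tested only through control. In TAM short against control 2 of 3 remain without it, in TAM long against control 3 of 4 and in DMBA+TAM against control 5 of 6. In DMBA against control 51.2% of all calls were rises, and 71.2% with library size only. In TAM short against control 3 members fell, where 7.8% of tested genes fell and 6.52% rose (14.3% called, 45.5% of calls were rises, and 58.6% with library size only). In TAM long against control 1 member rose and 3 fell, against 23.2% and 22.8% of tested genes (46% called, 50.5% of calls were rises, and 72.1% with library size only). In TAM long against TAM short 1 rose and 2 fell, against 22% and 20.3% (42.2% called, 52% of calls were rises, and 69.9% with library size only).

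In DMBA+TAM against control 3 members rose and 3 fell, where 29% and 35.3% of tested genes did (64.3% called, 45.1% of calls were rises, and 62.5% with library size only). Against DMBA 3 rose and 1 fell, beside 25.2% and 29.9% of tested genes (55.1% called), and against TAM long 3 rose and 1 fell, beside 25.3% and 29.9% (55.2% called). Against TAM short 3 rose and 2 fell, beside 29.3% and 33.8% (63.1% called, 46.4% of calls were rises, and 61.5% with library size only). In TAM long against DMBA edgeR called 0 of the 7 tested members, where 2.7% of tested genes were called, 1.24% as rises and 1.46% as falls; 2 members, *Ephx1* and *Nqo1*, had an unadjusted p under 0.05, and DESeq2 called 0 members as well.

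**Figure D4:**
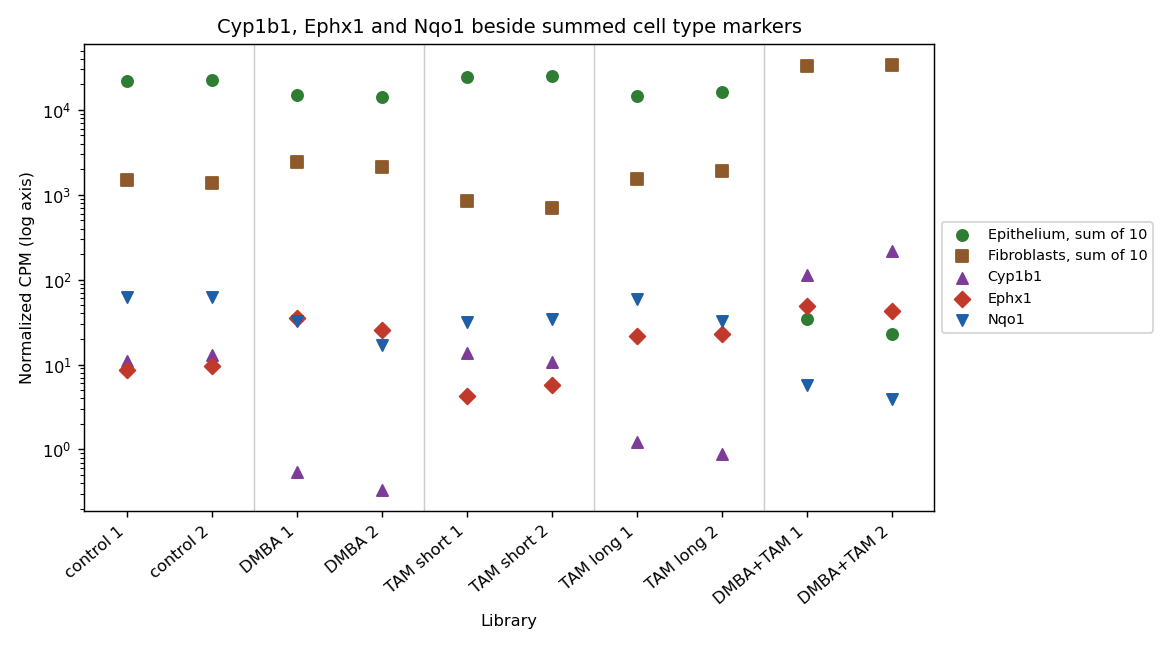
Normalized CPM (log axis) of *Cyp1b1*, *Ephx1* and *Nqo1* in each of the 10 libraries, with the summed normalized CPM of 10 epithelial and 10 fibroblast markers. In DMBA+TAM the epithelial sum was 22.9 to 34.3 and the fibroblast sum 32747 to 33571, while *Cyp1b1* reached 113 and 217 and *Nqo1* was at 5.81 and 3.97.

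Levels were compared between members per length, as the deposited FPKM. In control *Nqo1* led at 34 ± 0.329 (SD, n = 2), followed by *Tiparp* at 25.9 ± 1.73, *Ephx1* at 6.53 ± 0.372, *Ahr* at 5.95 ± 1.02, *Cyp1b1* at 1.99 ± 0.191, *Cyp1a1* at 1.03 ± 0.873 and *Ahrr* at 0.495 ± 0.0641. *Ephx1* and *Ahr* overlapped there, as did *Cyp1a1* and *Ahrr*. In DMBA+TAM *Ephx1* led at 46.0 ± 4.97, with *Cyp1b1* at 38.2 ± 17, *Ahr* at 21.1 ± 2.88, *Tiparp* at 20.6 ± 1.18, *Nqo1* at 3.74 ± 1.01 and *Ahrr* at 0.524 ± 0.399. *Ephx1* and *Cyp1b1* overlapped, and so did *Ahr* and *Tiparp*. The length behind the FPKM differs from the length column for 5 members, among them 1179 against 1741 bases in *Ephx1*, 2507 against 5548 in *Ahr* and 1871 against 4191 in *Tiparp*. With the length column, control *Tiparp* was at 11.6, *Ephx1* at 4.42 and *Ahr* at 2.69, and the overlaps of *Ephx1* with *Ahr* and of *Cyp1a1* with *Ahrr* in control were gone. In DMBA+TAM the mean of *Cyp1b1* (38.2 ± 17) then stood above that of *Ephx1* (31.2 ± 3.36), but their libraries still overlapped. This length was a choice made after seeing the data.

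The other genes of the pathway were read from lists. Of 10 partners of the receptor, such as *Arnt* and the heat shock protein genes *Hsp90aa1* and *Hsp90ab1*, 1 rose and 2 fell in DMBA against control (median log2 change -0.10, against 0.07 over all tested genes), and 3 rose and 3 fell in DMBA+TAM against control (median -0.01, against -0.17). Beside these counts, 24.5% of all tested genes rose and 23.3% fell in DMBA, and 29% and 35.3% in DMBA+TAM, both against control. *Ncoa3*, a coactivator, rose 0.77 ± 0.13 in DMBA (adjusted p = 0.000802) and 0.73 ± 0.13 in DMBA+TAM (adjusted p = 0.000846), both against control. *Ptges3*, a co-chaperone of the receptor, fell by 0.61 ± 0.12 and by 0.82 ± 0.12 in the same comparisons (adjusted p = 0.00216 and 0.000207 with edgeR). With library size only the medians of the list turned positive (0.21 and 0.48), 1 and 6 of its genes rose and *Ptges3* was not called (-0.30 and -0.33), so the list has no direction that holds under both scalings.

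The redox partners of the P450 enzymes were highest in control. All 4, namely *Por*, the reductase that feeds electrons to P450 enzymes, the cytochromes *Cyb5a* and *Cyb5b* and the reductase *Cyb5r3*, fell in each of the 4 other groups against the same control libraries. Of all tested genes 23.3% fell in DMBA, 7.8% in TAM short, 22.8% in TAM long and 35.3% in DMBA+TAM against control. With library size only *Cyb5b* was not called in TAM short (-0.42, adjusted p = 0.0812 with edgeR) and *Cyb5r3* not in DMBA+TAM (-0.41, adjusted p = 0.0914 with edgeR). For DMBA, for both TAM groups (short, then long) and for DMBA+TAM their medians were -1.57, -1.29, -1.56 and -1.85, against 0.07, -0.04, 0.05 and -0.17 over all tested genes. *Cyb5a* fell by 2.10 ± 0.19 in DMBA (adjusted p = 2.72e-05) and by 1.86 ± 0.20 in DMBA+TAM (adjusted p = 2.16e-05), *Cyb5r3* by 1.79 ± 0.18 in DMBA (adjusted p = 5.28e-05) and *Cyb5b* by 3.51 ± 0.14 in DMBA+TAM (adjusted p = 4.46e-08). Between TAM long and TAM short, a comparison without the control libraries, 1 rose and 2 fell (median -0.35), and the difference of changes was called for 3 of the 4, all negative (*Cyb5r3* at -1.89 ± 0.26, adjusted p = 0.00469 with edgeR). Of all tested genes 22% rose and 20.3% fell there, and 2.93% had a negative difference of changes. Their sum was 1781 to 2175 normalized CPM in control and 467 to 1067 in the other 8 libraries.

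Of 13 other reported targets of the receptor, 11 were tested. In DMBA against control 3 rose and 3 fell (median 0.47, but 5 and 2 with a median of 0.82 under library size only). In TAM long against TAM short 5 rose and 1 fell (median 0.51, but 6 and 0 with a median of 0.74 under library size only), and in DMBA+TAM against control 4 rose and 4 fell (median -0.39, but 0.10 with library size only). Of all tested genes 24.5% rose and 23.3% fell in DMBA against control. The shares were 22% and 20.3% in TAM long against TAM short, and 29% and 35.3% in DMBA+TAM against control. *Vav3*, a guanine nucleotide exchange factor, rose 2.46 ± 0.20 in DMBA against control (adjusted p = 1.02e-05) and 2.59 ± 0.19 in TAM long against TAM short (adjusted p = 1.16e-05). *Gsta1*, a glutathione transferase, fell by 3.56 ± 0.46 in DMBA against control (adjusted p = 0.000429), and also fell by 3.08 ± 0.45 in TAM short (adjusted p = 0.00361) and by 2.93 ± 0.44 in TAM long (adjusted p = 0.00107 with edgeR). It was at 0.15 ± 0.47 in TAM long against TAM short (adjusted p = 0.828), and the difference of changes was -3.71 ± 0.65 (adjusted p = 0.017 with edgeR). *Gsta1* had no count in DMBA+TAM, while control held 126 and 197 normalized CPM. *Scin*, an actin-severing protein, fell by 6.65 ± 0.80 in DMBA+TAM against control (adjusted p = 6.28e-06).

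Of 12 genes of the NRF2 pathway beside *Nqo1*, 2 rose and 8 fell in DMBA against control (median -0.77, but 3 and 6 with a median of -0.45 under library size only), where 23.3% of all tested genes fell. In the other groups against control, 1 rose and 6 fell in TAM long (median -0.41, but 1 and 3 with a median of -0.09 under library size only), 1 rose and 2 fell in TAM short (median -0.03), and 1 rose and 9 fell in DMBA+TAM (median -1.55, but 1 and 7 with a median of -1.06 under library size only), where 35.3% of all tested genes fell. Against control, 22.8% of all tested genes fell in TAM long and 7.8% in TAM short. In TAM long against TAM short 2 rose and 6 fell (median -0.50, against 0.05 over all tested genes), but 3 and 3 with library size only, while *Nqo1* was at 0.47 there. In that comparison 22% of all tested genes rose and 20.3% fell. *Srxn1* and *Osgin1*, which respond to oxidative stress, fell in DMBA against control. *Srxn1* fell by 1.83 ± 0.20 (adjusted p = 8.51e-05), *Osgin1* fell by 2.10 ± 0.21 (adjusted p = 4.83e-05), and both also fell in TAM long against TAM short, where no DMBA was labelled, at -1.63 ± 0.20 and -1.54 ± 0.21 (adjusted p = 0.000232 and 0.000424 with edgeR). *Gsr*, the glutathione reductase, fell by 4.17 ± 0.15 in DMBA+TAM against control (adjusted p = 2.26e-08). *Hmox1*, heme oxygenase, moved against the list and rose 5.33 ± 0.27 in DMBA+TAM (adjusted p = 1.31e-07), from 2.15 and 4.58 normalized CPM in control to 132 and 137. The macrophage genes *Csf1r* and *Adgre1* were high in the same libraries, at 389 to 453 and 422 to 439 normalized CPM against 17.3 to 37.4 and 5.54 to 11.1 elsewhere, and their part in the result was not tested.

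Of 11 other enzymes that act on diols, quinones and epoxides, 3 rose and 6 fell in DMBA against control (median -0.58, but 3 and 5 with a median of -0.25 under library size only), 6 rose and 3 fell in TAM long against TAM short (median 1.32, but 6 and 1 under library size only), and 4 rose and 5 fell in DMBA+TAM against control (median -0.22, but 0.28 with library size only). Among all tested genes, 24.5% rose and 23.3% fell in DMBA against control. The shares were 22% and 20.3% in TAM long against TAM short, and 29% and 35.3% in DMBA+TAM against control. *Ephx2*, the soluble epoxide hydrolase, fell by 4.05 ± 0.44 in DMBA against control (adjusted p = 0.000111), opposite to the microsomal *Ephx1*. It also fell without labelled DMBA, at -2.36 ± 0.42 in TAM short against control (adjusted p = 0.00663) and -1.42 ± 0.44 in TAM long against TAM short (adjusted p = 0.0269), with a difference of changes of -2.63 ± 0.62 (adjusted p = 0.0398 with edgeR). *Akr1b8*, an aldo-keto reductase, rose 3.51 ± 0.18 in DMBA against control (adjusted p = 1.03e-06) and 4.23 ± 0.18 in TAM long against TAM short (adjusted p = 8.66e-07). *Akr1c13* fell by 4.17 ± 0.29 in DMBA+TAM against control (adjusted p = 6.89e-07), and *Ephx3*, at 0.345 normalized CPM or less elsewhere, was at 1.58 and 2.20 in DMBA+TAM, near the value that 3 counts give there. *Ephx3* thus passed the filter on low counts only through the group where it was high, and its call among the 4 that rose was built in. Likewise *Ephx4*, at 0.226 to 0.757 normalized CPM in S and 3.14 to 5.21 in L, passed through L, so a rise in L over S was built in.

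**Figure D5:**
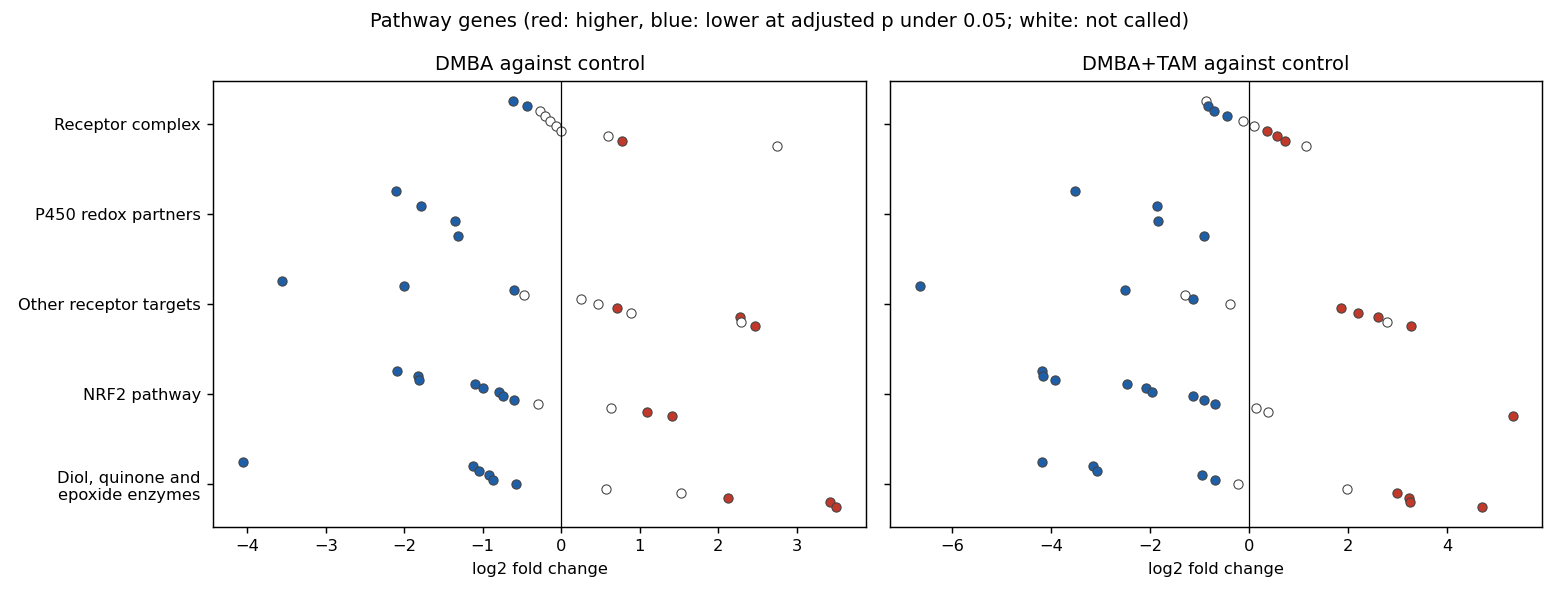
Log2 fold changes (x axis) of the tested genes of the 5 pathway lists in DMBA against control and in DMBA+TAM against control; red points rose, blue points fell and white points were not called, and *Gsta1*, with no count in DMBA+TAM, is left out of the right panel. The 4 redox partners lay below 0 in both panels, and *Hmox1* stood apart from the NRF2 pathway at 5.33 in DMBA+TAM.

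The genes whose pattern over the 10 libraries was most like that of a member were searched in the 11052 genes that averaged 50 counts or more, by the root mean square difference of centred log2 CPM. For *Cyp1b1* these were *Il33*, *Angptl4* and *Prrx1*, at distances of 1.01, 1.13 and 1.22, so no gene followed it closely. *Il33*, an alarmin cytokine of stromal and barrier cells, averaged 48.7 normalized CPM in control, 3.66 in DMBA, 15.2 in TAM short, 5.86 in TAM long and 219 in DMBA+TAM. *Prrx1*, a transcription factor of mesenchyme, averaged 18.2, 1.09, 3.96, 0.234 and 336 in the same order. For *Ephx1* they were *Kank2*, *Nrp2* and *Ror2* (0.257, 0.262 and 0.267), and *Nrp2*, a semaphorin and VEGF co-receptor, averaged 38, 135, 22.8, 119 and 165 in that order. For *Nqo1* they were the peroxisomal transporter *Abcd3*, *Prpsap1* and *Entpd5* (0.248, 0.289 and 0.296). *Ahr* was matched by *Cdc16*, *Ccng1* and *Phf12* (0.137, 0.138 and 0.139) and *Tiparp* by *Stx12*, *Cct6a* and *Xpo7* (0.10, 0.102 and 0.104).

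On GRCm38 the table lists *Ahr* (ENSMUSG00000019256) at chr12:35497974-35535038, *Ahrr* (ENSMUSG00000021575) at chr13:74211118-74292331, *Tiparp* (ENSMUSG00000034640) at chr3:65528410-65555518, *Cyp1a1* (ENSMUSG00000032315) at chr9:57697613-57703822, *Cyp1a2* (ENSMUSG00000032310) at chr9:57676937-57683655, *Cyp1b1* (ENSMUSG00000024087) at chr17:79706953-79715041, *Ephx1* (ENSMUSG00000038776) at chr1:180976210-181020904, *Nqo1* (ENSMUSG00000003849) at chr8:107388225-107403206 and *Aldh3a1* (ENSMUSG00000019102) at chr11:61207537-61218421. All are protein-coding genes, and counts are sums over their exons. *Cyp1a1* and *Cyp1a2* are neighbours on opposite strands. In GENCODE M21, exons of *Ahr*, *Tiparp* and *Ephx1* overlap those of 3 noncoding genes, none of which is a row of the table, and the library kit does not mark strand, so reads of *Ahr* and *Tiparp* cannot be told apart from antisense reads there.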

How the data were processed

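RNA was purified with poly-T beads and sequenced after a library kit that does not mark strand. According to the methods of the study, the authors mapped reads with TopHat and counted reads on the exons of each gene with HTSeq; the labels name GRCm38.p6. The deposited table holds raw read counts per gene and FPKM (fragments scaled by exon length and library total, computed by the authors from those counts) for all 10 libraries. It also holds group means and, for comparisons of groups that the authors made, fold changes with raw and adjusted p-values, which were not used. Of 47074 lines, 5 were parts of split lines without counts, 47069 genes remained and 26392 had at least 1 count. In FPKM, 73.9% of values equal the count divided by the listed length and the library total within 0.1%.

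In R 4.3.3 the counts went into edgeR 4.0.16, using filterByExpr with the groups, TMM scaling, a quasi-likelihood fit with 1 mean per group over all 10 libraries and Benjamini-Hochberg adjustment over 16179 genes at 0.05. Standard errors come from the fit, and 95% intervals are 1.96 standard errors on each side. The results were recomputed with library size alone in place of TMM, with DESeq2 1.42.0, without the filter, with only the groups compared, with a replicate block, with counts thinned to 1592366 and leaving out each library; levels by the length column were added after seeing the data. Steps were tested on simulated counts. Python 3.11.15 with pandas 2.3.3 and matplotlib 3.10.9 made the plots. Gene IDs matched GENCODE M21 for 98.8%.

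Groups came from the sample labels. Members and lists were chosen with earlier results of these data known. Named genes were the members, per pathway list the 2 largest called changes in DMBA+TAM and in DMBA against control, up to 3 top markers per list (*Fabp6*, *Csf1r* and *Adgre1* among them), *Ppp2r1a*, and per member the 3 nearest genes (prior count 2). *Cct6a* was named from its gene ID.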

Additional observations from a re-analysis of the deposited data

Results flagged for a closer look

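*Nqo1* stood out because its change differed between 2 pairs of groups under a test of the difference itself. The difference between DMBA minus control and TAM long minus TAM short was -1.81 ± 0.43 on the log2 scale (adjusted p = 0.0415 with edgeR, n = 2 libraries per group). Both DMBA libraries lay below both control libraries, whereas TAM long and TAM short overlapped. Over the alternatives the value ran from -1.86 to -1.33 where the call was lost: with library size only, in the fit on these groups alone, with thinned counts, and without control 1, control 2, DMBA 2, TAM short 1, TAM short 2 or TAM long 1. Where the call held, it ran from -2.36 to -1.80, and adjusted p over all alternatives ran from 5.35e-10 to 0.168, by edgeR or DESeq2.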

How the results depend on the processing

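The 43 member fold changes had 439 values under alternatives. Of these 377 kept direction and side of the threshold, 52 lost the call, 9 gained it and 1 turned: *Cyp1b1* in TAM long against DMBA went from 1.21 to -0.013 with thinned counts. *Cyp1a1* in TAM short against control had no adjusted p in DESeq2. With counts thinned to the smallest total, fewer genes were tested, and calls were 4832 in DMBA against control (from 7735), 1260 in TAM short against control (from 2317), 4591 in TAM long against control (from 7444), 202 in TAM long against DMBA (from 437), 3997 in TAM long against TAM short (from 6835) and 477 for the difference of changes (from 924); members called were 0 of 3 in TAM short against control, 2 of 4 in TAM long against control and 0 of 1 for the difference of changes. With only the groups compared, 4317 genes and 5 members were called in TAM short against control, 29 genes in TAM long against DMBA and 0 members for the difference of changes. With no filter, 1615 genes and 1 member were called in TAM long against DMBA and 2025 genes and 2 members for the difference of changes. With library size only, 1 member was called in TAM short against control and 0 for the difference of changes. DESeq2 called 857 genes in TAM long against DMBA. The cause of these shifts was not tested.

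Leaving out 1 library leaves a group of 1, which is then assumed to vary like the other groups. Genes called ran from 669 to 1057 in TAM short against control (members 0 to 1), 4946 to 5573 in TAM long against control, 58 to 1036 in TAM long against DMBA (members 0 to 1), 4258 to 5017 in TAM long against TAM short and 179 to 1618 for the difference of changes (members 0 to 1). Replicate numbers did not pair the libraries: deviations of same-numbered libraries correlated over 0.1 in 1 of 10 pairs of groups (-0.0414 to 0.26). With the replicate block, 41 of 43 member fold changes kept their call, *Nqo1* in TAM short against control gained it (-0.91, adjusted p = 0.0374) and *Ahrr* in DMBA+TAM against TAM short lost it (-1.41, adjusted p = 0.0648); 7632 genes were called in DMBA against control. By the length column, the mean of *Cyp1b1* was 1.23 times that of *Ephx1* in DMBA+TAM, and 0.83 times by FPKM, with overlapping libraries in both. The low depth of DMBA+TAM limits *Ahrr*, *Cyp1a1*, *Cyp1a2* and *Aldh3a1*.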
